A study of Homo sapiens with 9 samples.

Results

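The Hedgehog pathway was followed through 9 of the 60708 genes counted in this series, chosen by name as its core members. They were the ligands SHH and IHH, the receptor PTCH1, the ligand-binding inhibitor HHIP, the transducer SMO, the transcription factors GLI1, GLI2 and GLI3, and the GLI-binding inhibitor SUFU. All 9 had a row in the count file of every library, with counts of 0 in some, and a further 80 pathway genes were described beside them. The data were RNA-sequencing counts of untreated cells labelled MDA-MB-231, an established human line of triple-negative breast cancer of the basal-B type. There were 3 libraries each labelled WT, CS16 and CS19, and the last 2 groups together gave 6 libraries labelled SNAI1-KO. SNAI1 is a transcriptional repressor of epithelial genes, and CS16 and CS19 are each 1 single-cell clone in which it was targeted with CRISPR/Cas9, so that no group of mixed knockout cells stands beside them. The labels do not say whether the 3 libraries of a group came from separate cultures, and the p-values measure the spread between these libraries only.

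In this pathway a secreted ligand binds PTCH1, which otherwise holds SMO inactive. Active SMO moves into the primary cilium and prevents the proteolytic processing of GLI2 and GLI3, which are otherwise restrained by SUFU and turned largely into repressors. GLI1 and PTCH1 are themselves classical transcriptional targets of the pathway, as is HHIP, and the mRNA levels of GLI1 and PTCH1 are widely used as a readout of it. In the breast, the pathway is known for its part in ductal development.

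Several facts about the libraries bear on what follows. The libraries held 19527195 to 28627777 counted read pairs, and a floor of 3 counts, the upper limit that a count of 0 allows, lay between 0.0982 and 0.171 CPM (counts scaled to a common library total, with TMM factors). Floors and counting intervals cover counting error only. The targeted gene, SNAI1, had 16, 38 and 21 counts in WT, 26, 40 and 49 in CS16 and 57, 94 and 94 in CS19, and its log2 fold change in SNAI1-KO against WT was 0.89 ± 0.42 (SE; adjusted p = 0.0836). Its count was thus not lower in the libraries labelled SNAI1-KO, although a count over the whole gene does not show whether the edited exon is intact, and without WT-2 the log2 fold change was 1.40 (adjusted p = 0.0126). The 9p21 genes CDKN2A, CDKN2B and MTAP, which MDA-MB-231 is known to lack, had 0 counts in all WT libraries and summed to 168 to 175 CPM in CS16 and 164 to 182 CPM in CS19. Of the 8 basal-B markers, 7 were called lower in SNAI1-KO, and their summed level was 4477 to 6126 CPM in WT, 455 to 491 in CS16 and 427 to 447 in CS19. Of 5 embryonic kidney markers, 3 were called higher and 1 lower, with sums of 10.4 to 25.9 CPM in WT and 105 to 159 CPM over the clones. The clone sums were nearly all from the neurofilament genes NEFL (69.8 to 138 CPM) and NEFM (16.7 to 36.6 CPM), which had 0 counts in WT. The kidney regulator PAX2 was at 0 in WT and 0.143 to 0.294 CPM in the clones, and PAX8 was at 10.4 to 25.8 CPM in WT and at most 0.0655 CPM in the clones. LHX1, also on the kidney list, was at 0.0493 to 0.0571 CPM in WT. It was higher in every clone library, at 1.96 to 2.31 CPM in CS16 and 0.687 to 1.14 CPM in CS19. Of 8 luminal breast markers, 1 was called higher and 5 lower, with sums of 953 to 1527 CPM in WT, 7.01 to 8.73 in CS16 and 19.2 to 22.8 in CS19. The WT sums were nearly all from the keratins KRT8 (614 to 877 CPM) and KRT19 (308 to 613 CPM). ESR1 (0.359 to 0.457 CPM) and TFF1 (0.514 to 0.839 CPM) were low in WT. The 1 called higher was FOXA1, at 0 to 0.103 CPM in WT, 2.86 to 4.10 in CS16 and 15.3 to 18.2 in CS19. Of 5 prostate markers, 1 was called higher and 2 lower, with sums of 28.4 to 39.1 CPM over all libraries. Of 5 fibroblast markers, 1 was called higher and 1 lower, with sums of 17.5 to 46.9, 62.1 to 66.6 and 10.2 to 12.5 CPM in WT, CS16 and CS19. These sums joined genes that went opposite ways. COL3A1 was at 0.395 to 0.770 CPM in WT, 55.1 to 59.3 in CS16 and 5.72 to 7.14 in CS19. PDGFRB was at 13.1 to 25.4 CPM in WT and at most 0.520 in the clones. COL1A1 was at 20.7 CPM in WT-2 against 3.16 in WT-1 and 2.36 in WT-3. The 4 haematopoietic markers summed to 0.636 to 1.44 CPM, and the 1 that could be tested, LCP1, was not called (adjusted p = 0.395). The markers therefore go against the line label for the clones, and the clones are named below by their labels only. Whether a difference below belongs to the loss of SNAI1 or to another difference between the WT cells and the clones cannot be told apart.

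WT-2 stood apart from the other WT libraries. The correlation of its log2 CPM was 0.954 with WT-1 and 0.949 with WT-3. Those libraries correlated with each other at 0.990, and pairs within a clone at 0.990 or more. Where leaving WT-2 out moved a result below by a large factor, turned it or ended a call, the value without it is given too.

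To show where regulators could meet these genes, the 250 bases before a start site are printed for the 3 members on which most of the results turn. SMO was the member called higher with the largest ratio and SHH the one called lower, and a start site of PTCH1 was the only one in the table of these members with a GLI motif. The sequences are from the RefSeq promoter table for GRCh38.p14, on the strand of the gene, and capitals mark a motif.
SMO, chr7:129188383-129188632, plus strand: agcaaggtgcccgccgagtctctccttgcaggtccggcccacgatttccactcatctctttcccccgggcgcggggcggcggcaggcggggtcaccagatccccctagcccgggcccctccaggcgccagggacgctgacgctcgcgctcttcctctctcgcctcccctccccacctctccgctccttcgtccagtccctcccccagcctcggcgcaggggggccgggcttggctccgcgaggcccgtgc
SHH, chr7:155812464-155812713, minus strand: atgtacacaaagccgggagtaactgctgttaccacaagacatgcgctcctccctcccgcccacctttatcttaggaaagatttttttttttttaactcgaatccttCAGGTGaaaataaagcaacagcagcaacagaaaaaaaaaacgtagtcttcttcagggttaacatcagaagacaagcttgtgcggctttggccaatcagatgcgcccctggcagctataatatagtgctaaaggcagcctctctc
PTCH1, chr9:95509267-95509516, minus strand: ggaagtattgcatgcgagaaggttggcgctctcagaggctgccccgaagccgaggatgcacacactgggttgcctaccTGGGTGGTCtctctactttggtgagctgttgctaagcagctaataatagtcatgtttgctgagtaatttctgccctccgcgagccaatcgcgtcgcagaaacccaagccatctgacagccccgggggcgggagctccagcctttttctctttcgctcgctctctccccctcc

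The letters searched were GACCACCCA, the consensus site of GLI factors, and CAGGTG, an E-box of the kind SNAI1 binds, both on either strand. These words do not overlap each other. The table held 12 windows for 7 of the 9 members, and GLI1 and GLI3 were not matched. The GLI motif stood at position -172 from the PTCH1 start site printed above and in no other of the 12 windows. Those others include further start sites of PTCH1. Of 35116 promoters of that length, 0.199% hold the motif, a share per promoter and not per gene. The E-box stood at -144 before SHH and before a second start site of GLI2 at -139, and 17.5% of all promoters hold it. The SMO window held neither motif and was 73.6% G and C.

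Across the 8 members that could be tested in SNAI1-KO against WT, SMO and GLI1 were called higher and SHH was called lower. A call needed an adjusted p below 0.05 and an absolute log2 fold change of 2 or more. Of all 19631 genes tested, 12.6% were called higher and 14.3% lower (26.9% together), beside which 3 of 8 is not a result about the members as a group. IHH did not pass the filter on low counts and was not tested. The median log2 fold change of the 8 members was -0.68, against 0.00 over all genes, and it was 0.25 without WT-2.

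**Figure D1:**
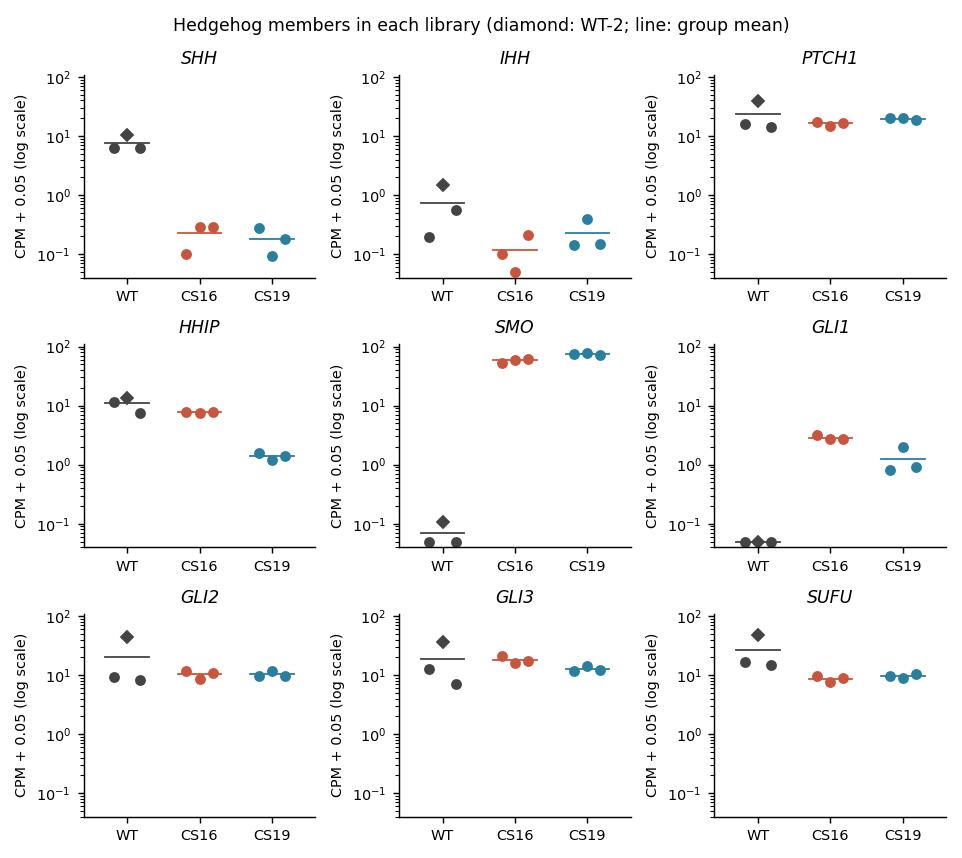
Level of each of the 9 Hedgehog members in each library, as CPM + 0.05 on a log axis, with WT in grey, CS16 in red and CS19 in blue. Lines are group means (n = 3), and diamonds mark WT-2. SMO and GLI1 lie at the bottom of the axis in WT and above it in all 6 clone libraries, SHH lies the other way round, and WT-2 is the highest WT library in every panel but GLI1.

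The ligand SHH, the most widely used Hedgehog ligand, lies at chr7:155799980-155812463 on GRCh38, like all gene positions below. Its CPM was 6.22, 10.2 and 6.26 in WT (mean 7.55 ± 2.27, SD, n = 3), 0.0490, 0.239 and 0.239 in CS16 and 0.227, 0.0434 and 0.131 in CS19. In counts these were 126, 178 and 122 against 1 to 6 in every clone library, so that the groups did not overlap (28.7% of all genes did not overlap in this direction). The log2 fold change was -5.56 (SE 0.39, 95% interval -6.40 to -4.71, adjusted p = 2.29e-07), and it was -5.32 in CS16 against WT (adjusted p = 0.000120) and -5.73 in CS19 against WT (adjusted p = 7.39e-05). Both comparisons share the WT libraries. The SHH levels of the clones were close to the floor, and the 12 counts of CS16 and 10 of CS19 left SHH untested between the clones. Without WT-2 the log2 fold change in SNAI1-KO was -5.29.

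IHH, the ligand known from bone and gut (chr2:219054424-219060921), was near the floor in most libraries. It had 3, 25 and 10 counts in WT, 1, 0 and 4 in CS16 and 2, 8 and 3 in CS19. The highest count was in WT-2. DHH, the third ligand and one of the further pathway genes, had 3 to 8 counts in WT, 6 to 8 in CS16 and 7 to 17 in CS19 and was not tested either.

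PTCH1, the receptor, lies at chr9:95442980-95517057. It had 15.7, 39.7 and 14.2 CPM in WT, 17.4, 15.0 and 16.8 in CS16 and 20.5, 19.9 and 18.4 in CS19. WT-2 was the highest library, and both clones overlapped the WT range. The log2 fold change in SNAI1-KO was -0.36 (SE 0.29, 95% interval -1.0 to 0.27, adjusted p = 0.292). Without WT-2 it turned to 0.27 (adjusted p = 0.112) and, in CS19 against WT, to 0.41 (adjusted p = 0.00656). A difference of PTCH1 was therefore not shown, and its direction depended on WT-2.

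HHIP binds ligand at the cell surface and lies at chr4:144646156-144745271. It was the member in which the clones differed most. Its CPM was 11.5, 13.4 and 7.54 in WT (10.8 ± 2.99), 7.60, 7.58 and 7.76 in CS16 (7.65 ± 0.0957) and 1.55, 1.17 and 1.34 in CS19 (1.35 ± 0.188). CS16 overlapped the lowest WT library, and CS19 lay below all others (32.1% of all genes lay lower in CS19 than in WT with no overlap). In CS19 against WT the log2 fold change was -2.96 (SE 0.31, adjusted p = 0.000180), a call in the lower direction (background 14.4%). It was -0.47 (SE 0.26, 95% interval -1.09 to 0.15, adjusted p = 0.167) in CS16 against WT. With both clones together it was -1.27 (SE 0.61, adjusted p = 0.0890). HHIP shares 892 exon bases (7.47%) with antisense genes, most of them with HHIP-AS1, which had at least 50 counts in each WT library, 11, 13 and 26 in CS16 and 5, 7 and 11 in CS19. Strand was not used in the counting, so reads from these bases cannot be told apart.

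SMO, the transducer that is held back by PTCH1, lies at chr7:129188633-129213545. It had 0, 1 and 0 counts in WT, 1089, 1262 and 1544 in CS16 and 1619, 1777 and 2202 in CS19. This came to 58.3 ± 4.33 CPM for CS16 and 74.2 ± 2.55 for CS19 (mean and SD, n = 3), from 53.4 to 77.0 CPM over the 6 libraries. The groups did not overlap (29.7% of all genes did not overlap in this direction). The ratio of SNAI1-KO to WT was 3825, with a 95% counting interval of 686 to 151082 that is wide since WT gave 1 count (adjusted p = 2.08e-09). An antisense gene, ENSG00000243230, shares 129 exon bases (2.72%) with SMO, and it had 0 counts in WT and 19 to 34 in the clones. SMO was called higher in CS16 (adjusted p = 8.12e-06) and in CS19 (adjusted p = 5.82e-06), as were 11.8% and 12.0% of all genes. Taking both directions together, 3 of 8 members were called in CS16 (background 27.1%) and 4 of 8 in CS19 (background 26.3%).

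GLI1, the transcription factor that is also a target of the pathway, lies at chr12:57459785-57472268. It had 0 counts in all WT libraries, 63, 57 and 67 in CS16 and 17, 45 and 26 in CS19. It was at least 12.7-fold higher in SNAI1-KO than in WT, measured against a floor of 3 counts per library (adjusted p = 0.000186). Against the same floor it was at least 17.9-fold higher in CS16 and at least 7.55-fold higher in CS19. Its mean was 2.82 ± 0.230 CPM for CS16 and 1.19 ± 0.659 for CS19.

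GLI2, the main activator among the GLI factors (chr2:120735623-120992653), had 9.28, 44.4 and 8.11 CPM in WT, 11.7, 8.59 and 10.9 in CS16 and 9.54, 11.7 and 9.56 in CS19. GLI3, whose processed form is a repressor (chr7:41960949-42264100), had 12.8, 36.3 and 6.98 CPM in WT, 21, 16.0 and 17.2 in CS16 and 11.6, 14.1 and 12.1 in CS19. WT-2 was the highest library for both. The log2 fold change of GLI2 in SNAI1-KO was -0.99 (SE 0.44, adjusted p = 0.0680) and that of GLI3 -0.28 (SE 0.41, adjusted p = 0.564). Without WT-2 they turned to 0.24 (adjusted p = 0.209) and 0.63 (adjusted p = 0.0597), and GLI3 in CS16 against WT turned from -0.03 to 0.86 (adjusted p = 0.00403).

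SUFU, which holds GLI proteins in the cytoplasm (chr10:102503972-102633535), had 16.4, 48.3 and 14.5 CPM in WT, 9.61, 7.49 and 8.95 in CS16 and 9.73, 9.02 and 10.3 in CS19. All clone libraries lay below all WT libraries, as was so for 28.7% of all genes. The log2 fold change was -1.52 (SE 0.32, 95% interval -2.23 to -0.82, adjusted p = 0.00149), so that SUFU passed the adjusted p but not the fold-change cut-off. Of all genes, 32.5% were lower with an adjusted p below 0.05. Without WT-2 the log2 fold change shrank to -0.76 (adjusted p = 0.000534), and it was -0.84 and -0.66 in CS16 and CS19.

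**Figure D2:**
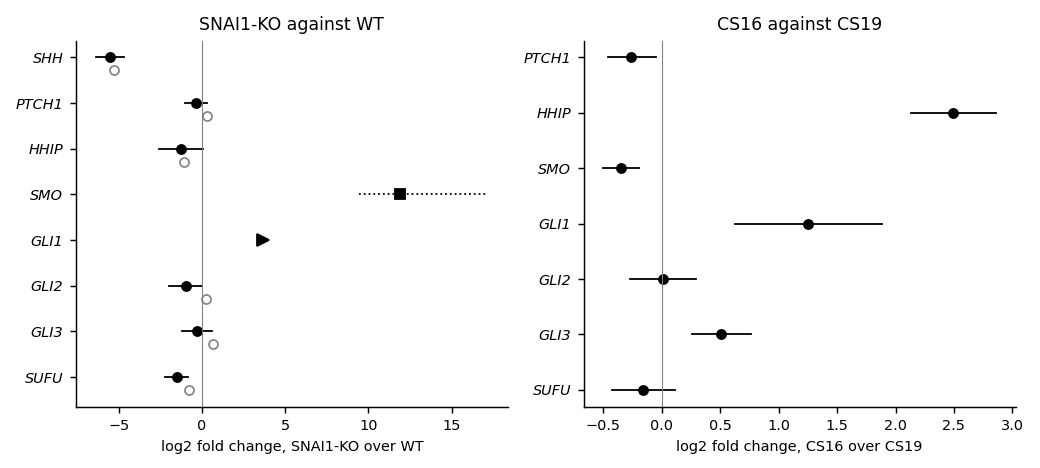
Log2 fold changes of the tested members, with SNAI1-KO over WT on the left and CS16 over CS19 on the right. Filled circles and bars are edgeR estimates with 95% intervals, open circles are estimates without WT-2, the square and dotted bar give the count ratio of SMO with its counting interval, and the triangle is the lower bound of GLI1. PTCH1, GLI2 and GLI3 cross 0 when WT-2 is left out, and HHIP is the farthest from 0 between the clones.

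WT-2 exceeded the mean of WT-1 and WT-3 by a log2 difference of 2.35 for GLI2, 2.11 for IHH, 1.87 for GLI3, 1.64 for SUFU, 1.41 for PTCH1, 0.70 for SHH and 0.50 for HHIP. Over 17648 genes the median of that difference was 0.04 and the middle 90% lay between -1.55 and 1.90. GLI2 and IHH lay above that range, and the part of this library in the results for GLI2, GLI3, PTCH1 and SUFU is given by the values without it.

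The clones were then compared directly. Of the 7 members tested, HHIP was called higher in CS16 than in CS19, with a log2 fold change of 2.49 (SE 0.17, 95% interval 2.13 to 2.86, adjusted p = 3.11e-08). In this comparison 0.627% of 17538 genes were called higher and 0.496% lower (1.12% together), and 20.4% lay higher in CS16 with no overlap. GLI1 (1.25, SE 0.29, adjusted p = 0.00440) and GLI3 (0.51, SE 0.12, adjusted p = 0.00373) were higher in CS16 without reaching the fold-change cut-off, and SMO was lower (-0.35, SE 0.07, adjusted p = 0.00151). These 4 of 7 members passed an adjusted p below 0.05, as did 27.9% of all genes. For GLI2 the log2 fold change was 0.01, with a 95% interval of -0.27 to 0.29, which bounds any difference between the clones. PTCH1 (-0.26, adjusted p = 0.0633) and SUFU (-0.16, adjusted p = 0.377) did not pass.

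Levels were compared between members per exon length, as TPM. In WT the order was SUFU (12.7), GLI2 (8.95), SHH (4.70), GLI3 (4.56), PTCH1 (4.46), HHIP (2.98), IHH (0.922), SMO (0.0138) and GLI1 (0), and the ranges of all neighbours but IHH and SMO overlapped. That order rested on WT-2. Over WT-1 and WT-3 alone, SUFU was at 7.04, SHH at 3.71, GLI2 at 3.53, PTCH1 at 2.72, HHIP at 2.54, GLI3 at 2.31 and IHH at 0.390 TPM, with SMO and GLI1 at 0. In CS16 SMO stood first with 38.2 ± 3.13 TPM, above GLI2 (4.25), GLI3 (4.14), SUFU (3.98) and PTCH1 (3.00), whose ranges overlapped from one to the next. In CS19 SMO was at 47.6 ± 6.19 TPM, above SUFU (4.25), GLI2 (4.07), PTCH1 (3.47) and GLI3 (2.79), whose ranges overlapped likewise. SHH was among the lowest 2 members in both clones. The ratio of PTCH1 to SMO in TPM was 0.0689 to 0.0903 over the 6 clone libraries.

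**Figure D3:**
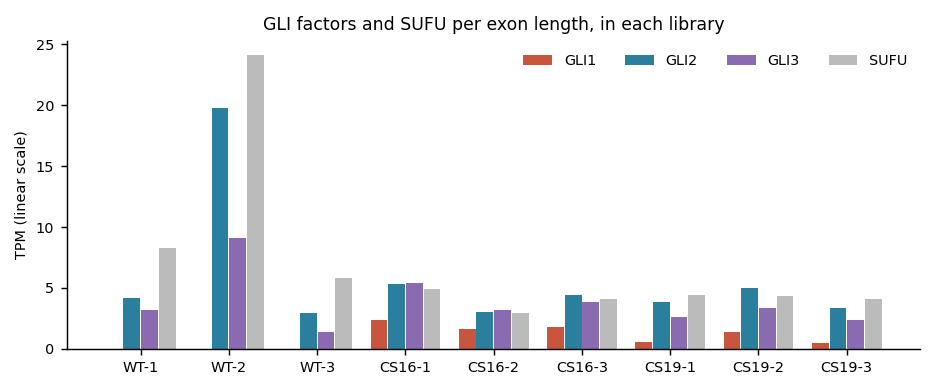
TPM of GLI1, GLI2, GLI3 and SUFU in each of the 9 libraries, on a linear axis from 0, with 1 bar per gene and library. GLI1 has no bar in WT, is taller in CS16 than in CS19 in each library, and WT-2 has the tallest GLI2, GLI3 and SUFU bars.

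The make-up of the GLI factors differed between the groups. GLI1 made up 18.2%, 20.8% and 18.1% of the summed TPM of the GLI genes in CS16, 7.53%, 14.4% and 8.10% in CS19, and 0 in WT. The ratio of GLI3 to GLI2 was 0.774, 0.457 and 0.482 in WT, 1.01, 1.04 and 0.885 in CS16 and 0.682, 0.673 and 0.711 in CS19. CS16 lay above both other groups in each of these measures, and the ratios of GLI3 to GLI2 overlapped between WT and CS19.

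The genes whose log2 CPM followed the members most closely over the 9 libraries were listed for GLI2, GLI3 and PTCH1. They were PLEKHG3 (r = 0.996), SELENON and SAMD4B (both 0.994) for GLI2, PIK3C2B (0.973), IGF1R (0.969) and ENSG00000279278 (0.967) for GLI3, and NINL (0.992), VPS39 (0.991) and DOCK6 (0.989) for PTCH1. The libraries of a group share their cells, and WT-2 is the highest library for each of these 3 members. Without it, r was 0.893 to 0.925 for GLI2, 0.934 to 0.954 for GLI3 and 0.928 to 0.976 for PTCH1.

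Of the 80 further pathway genes, 77 were tested in SNAI1-KO against WT, and 13 were called higher and 5 lower (background 12.6% and 14.3%). At an adjusted p below 0.05 alone, 35 were higher and 19 lower, against 31.0% and 32.5% of all genes, and their median log2 fold change was 0.25. Without WT-2, 13 were called higher and 4 lower of 78 tested, against 13% and 12.9% of all genes in that fit. By clone, 13 of 76 were called higher and 5 lower in CS16, and 11 of 76 higher and 6 lower in CS19, in comparisons that share the WT libraries (backgrounds 11.8% and 15.3% in CS16, 12.0% and 14.4% in CS19).

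Among the receptors and co-receptors, 3 of 5 were called higher, beside 12.6% of all genes. GAS1, a co-receptor that promotes ligand binding, had 0 counts in WT and 680 to 1275 in the clones, at least 249-fold higher in SNAI1-KO. LRP2, a large endocytic receptor that takes up SHH, had 0.197, 0.628 and 0.0513 CPM in WT, 48.4, 47.4 and 48.9 in CS16 and 89.8, 85.9 and 90.4 in CS19, a log2 fold change of 7.89 (SE 0.57, adjusted p = 3.37e-07). BOC, a co-receptor of the immunoglobulin family, rose from 2.47 to 3.71 CPM in WT to between 17.3 and 23.4 CPM in the clones (log2 fold change 2.78, SE 0.22, adjusted p = 5.55e-07). CDON, a co-receptor related to BOC, fell by less than the fold-change cut-off (log2 fold change -0.70, adjusted p = 0.000644).

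Among ligand-release genes, SCUBE1, which helps free the lipid-bound ligand, was called higher with a log2 fold change of 2.04 (SE 0.37, adjusted p = 0.000546). This is just over the cut-off, and SCUBE1 was not called in CS19 against WT. Without WT-2 it was called there (2.39, adjusted p = 5.66e-06). SCUBE1 had 0.740, 1.20 and 0.359 CPM in WT and 2.23 to 4.36 CPM in the clones. Of the 6 ligand-release genes tested in SNAI1-KO against WT, 1 was higher and 4 lower at an adjusted p below 0.05, beside 31.0% and 32.5% of all genes. Among the 10 SMO and GPCR regulators, 1 was called higher and 2 lower, beside 12.6% and 14.3% of all genes. GRK3, a kinase of the receptor-kinase family, was called higher (2.53, SE 0.17, adjusted p = 1.57e-07), with 11.0 to 15.4 CPM in WT and 65.1 to 87.0 CPM in the clones. EVC and EVC2, partners of SMO at the base of the cilium, were called lower. EVC2 had 34, 67 and 33 counts in WT and 0 in all clone libraries, at least 18.6-fold lower. EVC had 67.2, 251 and 53.6 CPM in WT and 20.3 to 30.8 CPM in the clones (-2.26, SE 0.39, adjusted p = 0.000321). Without WT-2, EVC was at -1.23 and no longer called.

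Of the 21 kinases, ligases and scaffolds that act on GLI proteins, 1 was called higher, beside 12.6% of all genes. At an adjusted p below 0.05, 8 were higher and 5 lower, shares near the 31.0% and 32.5% of all genes. The gene called was DYRK2, a kinase, with 28.2, 19.6 and 28.5 CPM in WT and 109.6 ± 4.59 CPM in the clones (SD, n = 6). Its log2 fold change was 2.11 (SE 0.16, adjusted p = 4.26e-07), and 1.95, just under the cut-off, without WT-2. KIF7, the kinesin that scaffolds GLI proteins in the cilium, was at 1.95 and reached 2.46 without WT-2. Of the 22 primary cilium genes, 2 were called higher, a share near the 12.6% of all genes. At an adjusted p below 0.05, 14 were higher and 1 was lower, against 31.0% and 32.5% of all genes. Without WT-2 these were 13 and 3, against 33.9% and 33.2%. IFT27, a small GTPase of the transport complex, rose from 4.67 to 5.37 CPM in WT to 30.5 to 34.6 CPM in the clones (2.69, SE 0.16, adjusted p = 4.53e-08). DYNC2H1, the motor heavy chain of retrograde transport, rose from 40.8 to 61.8 CPM in WT to 243 to 364 CPM in the clones (2.53, SE 0.22, adjusted p = 1.38e-06).

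Of 13 known targets tested, 5 were called higher and 3 lower, beside 12.6% and 14.3% of all genes. FOXF1, a forkhead factor of mesenchyme, had 0, 0 and 1 counts in WT and 100 to 193 in the clones, a ratio of 343 (95% counting interval 61.4 to 13574). CCND2, a D-type cyclin, rose from 2.51 to 3.65 CPM in WT to 153 to 164 CPM in CS16 and 64.4 to 69.6 CPM in CS19 (5.20, SE 0.47, adjusted p = 2.11e-06). FOXL1, a forkhead factor known from gut mesenchyme, had 3 counts in WT and 238 in the clones, a ratio of 32.0 (10.8 to 156). FOXC2 (ratio 35.5, 6.20 to 1416) and SFRP1 (log2 fold change 4.16, SE 0.37) were also called higher. In the other direction, BMP4, a secreted growth factor, was at 212, 465 and 239 CPM in WT and 6.30 to 8.95 CPM in the clones (-5.36, SE 0.24, adjusted p = 8.04e-09). CCND1, a D-type cyclin like CCND2, was at 699, 1077 and 766 CPM in WT, 85.2 to 95.3 CPM in CS16 and 10.1 to 11.9 CPM in CS19 (-4.08, SE 0.72, adjusted p = 0.000442). HSD11B1, an enzyme of glucocorticoid activation, had 23, 12 and 26 counts in WT and 2 in all clone libraries together, 75.7-fold higher in WT (20.1 to 639). Between the clones, CCND1 was the only one of the 75 further genes tested that was called, higher in CS16 (2.99, SE 0.09, adjusted p = 3.19e-12). Whether cells differ in number or in RNA per cell cannot be told apart in these bulk libraries.

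**Figure D4:**
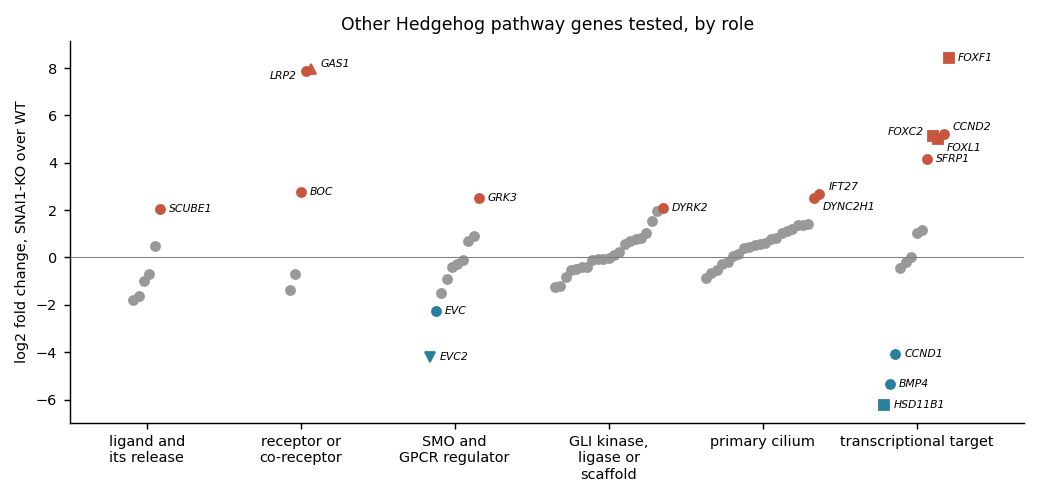
Log2 fold change of SNAI1-KO over WT for the 77 further pathway genes tested, by role. Red marks genes called higher, blue genes called lower and grey the rest. Triangles are bounds on the size of the change and squares count ratios, used where a group had 0 to 3 counts. Targets hold 5 genes called higher and 3 called lower, and the receptors and co-receptors hold 3 called higher, where 12.6% of all genes were called higher and 14.3% lower.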

How the data were processed

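RNA-sequencing counts of 9 libraries were used, 3 each of WT, CS16 and CS19. Total RNA was depleted of ribosomal RNA and made into stranded libraries. The submitters' processing notes name Trimmomatic 0.36 for trimming and STAR 2.7.2b for alignment to GRCh38, and the authors deposited raw counts per gene from featureCounts 2.0.0 on gencode 38, with both mates aligned, a mapping quality of at least 30 and strand not used. Symbols matched for 60463 of 60708 genes (99.6%). No per-sample column was left unused. Library totals are given with the results, and no molecular identifiers were present.

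Counts were tested in R 4.3.3 with edgeR 4.0.16 (filterByExpr, TMM, quasi-likelihood test with robust fit), limma 3.58.1 and, as an alternative, DESeq2 1.42.0, with Benjamini-Hochberg adjustment over all genes tested and calls at an adjusted p below 0.05 and a log2 fold change of at least 2. The comparisons were SNAI1-KO against WT, each clone against WT, and CS16 against CS19, each in a fit of its own libraries. Standard errors came from the F statistic. CPM used TMM-scaled totals, and TPM used exon length without TMM. Python 3.11.15 with numpy 2.4.6, pandas 2.3.3, scipy 1.17.1 and matplotlib 3.10.9 did the rest. Simulated counts, in which 200 genes were changed, served to test the edgeR, DESeq2 and shared fits. They gave all libraries of a group the same expected levels, so a library that stands apart, like WT-2, was not covered.

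The members and lists were chosen with earlier results of these data known. All 9 members were named. Of the further pathway genes, at most the 3 with the largest fold change in each direction within a role were named among those called in SNAI1-KO against WT, and CDON, KIF7, FOXC2, SFRP1 and DHH were named after their values were seen. The 3 genes most like GLI2, GLI3 and PTCH1 were found by Pearson r of log2 CPM with a prior count of 2. Alternatives were DESeq2, RLE, no filter, a minimum of 10 counts in 3 libraries, omission of the 100 highest genes, other cut-offs, the replicate block, a shared fit and leaving out each library. Role counts and the WT order of levels without WT-2 were added after seeing the data. Exon overlaps came from the gene annotation of the deposited counts, on the same build, and protein sequences were not used here.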

Additional observations from a re-analysis of the deposited data

Results flagged for a closer look

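The effect of the knockout label differed between the clones for 4 members, each by the test of CS16 against CS19 itself. The log2 difference was 2.49 for HHIP, 1.25 for GLI1, 0.51 for GLI3 and -0.35 for SMO, with CS16 minus CS19 throughout. HHIP was the only one of the 4 that also reached the fold-change cut-off. HHIP-AS1, which shares exon bases with HHIP, was also higher in CS16 (11, 13 and 26 counts) than in CS19 (5, 7 and 11), and its part in the result was not tested.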

How the results depend on the processing

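The member calls, 3 in SNAI1-KO and in CS16 against WT and 4 in CS19 against WT, kept their counts under DESeq2, RLE, the filter of 10 counts in 3 libraries, omission of the 100 highest genes, the block, the shared fit and each library left out. With no filter they were 4 in each of these comparisons. Directions that turned did so for members that were not called. Without WT replicate 2, PTCH1 turned to 0.27, 0.14 and 0.41, GLI2 to 0.24, 0.25 and 0.26, and GLI3 to 0.63, 0.86 and 0.37 (SNAI1-KO, CS16 and CS19 against WT). Leaving out each library in turn gave, in the same order, PTCH1 from -0.60, -0.71 and -0.45, GLI2 from -1.35, -1.32 and -1.33, and GLI3 from -0.65, -0.40 and -0.91 up to those values, and GLI2 in CS16 against CS19 from -0.08 to 0.13. GLI3 in CS16 against WT turned to 0.09 with no filter on low counts. Replicate numbers did not pair the libraries (correlations of deviations -0.206 to 0.190, own number best in 4 of 18). With the replicate block, GLI3 in CS16 against WT turned to 0.32, and the members called stayed at 3, 3, 4 and 1.

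With no fold-change cut-off and with one of 1, the further pathway genes called were 54 and 35 in SNAI1-KO, 47 and 35 in CS16 and 44 and 30 in CS19 against WT, and 24 and 3 between the clones, where the count was 2 with no filter and 1 to 2 when leaving out 1 library. Members called between the clones were 4 and 2. All genes called were 12467 and 9243, 10237 and 8535, 9926 and 8277, and 4893 and 830, and with no filter 8626, 7564, 7503 and 350. The moves under another cut-off or filter follow from that setting itself, and the cause of the others was not tested. Levels near the floor, as for SHH in the clones, limit what depth can show.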

Other observations

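The genes beside SMO on chromosome 7, chosen after the SMO values were seen, did not all move one way. ATP6V1F, a subunit of the vacuolar proton pump, was at 14.4 to 40.2 CPM in WT, 66.7 to 74.8 in CS16 and 50.4 to 60.9 in CS19. TSPAN33, a neighbour of SMO, was at 1.31 to 1.73 CPM in WT, 19.4 to 22.4 in CS16 and 42.8 to 46.5 in CS19. IRF5 was at 1.80 to 2.91 CPM in WT and at most 0.398 CPM in CS16 and 0.229 CPM in CS19. STRIP2 was at 62.8 to 63.2 CPM in WT, 28.2 to 30.4 in CS16 and 32.2 to 35.1 in CS19. AHCYL2 was at 11.6 to 16.8 CPM in WT and 16.9 to 19.8 CPM in the clones, and TNPO3 was at 123 to 188, 181 to 197 and 154 to 169 CPM. NRF1 was at 29.4 to 37.3 CPM in WT, 27.2 to 28.2 in CS16 and 26.0 to 28.6 in CS19, and SMKR1 was at 0.318 to 1.14 CPM over all libraries.

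MYCN, a target that was not tested in SNAI1-KO against WT, had 0 counts in WT and CS19 and 35 in CS16, at least 3.33-fold over WT and at least 4.32-fold over CS19 against the floor.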
